A study of Mus musculus with 16 samples.

Results

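The 10 genes described here, Penk, Tac1, Drd2, Rgs9, Rgs4, Pde1b, Ptpn5, Actn2, Itpka and Rasgrp2, are expressed in striatal projection neurons and were taken by symbol from the 9026 genes named on the array. They had 15 rows in the value table. Tac1, Rgs9 and Ptpn5 had 2 rows each, Drd2 had 3 and the other 6 genes 1 each, and the rows of a gene are called a, b and c in array order. Expression was compared between 4 male C57BL/6J mice heterozygous for HdhQ111 (HdhQ111/+) and a pool of RNA from 4 wildtype C57BL/6J males, all 18 weeks old, in brain and in liver. The HdhQ111 knock-in lengthens the CAG repeat of the animal's own huntingtin gene. Each mutant mouse and tissue was hybridised on 2 two-colour cDNA arrays with the dyes swapped, so there were 16 arrays, 8 per tissue. The same mice gave both tissues and the pool was a single reference sample per tissue, so the spread among wildtype mice was not measured. The labels say only "brain", with no dissected region.

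Striatal projection neurons are the GABAergic output cells of the striatum and are lost early in Huntington's disease. They fall into a population that projects through the direct pathway and expresses tachykinin (Tac1), and one that projects through the indirect pathway and expresses enkephalin (Penk) and the D2 dopamine receptor (Drd2). Both integrate dopamine with glutamate through cAMP, calcium and small G proteins, and many regulators of these signals are enriched there, among them Rgs9, Pde1b and Ptpn5. Several of these genes, Rgs4, Itpka, Actn2 and Rasgrp2 among them, are also used outside the striatum, for example in cortex, hippocampus, muscle or platelets.

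All values are log2 ratios, likely HdhQ111 over wildtype. This direction, and that the deposited ratios were already turned one way, was inferred and is stated by no source. Gene names sit on the value row 11 below the one that the platform table gives, a shift that was also inferred from the data. As a check of that shift, the liver-over-brain SD (below, on a log2 scale) was set out for 76 rows of other striatal, cortical, cerebellar and glial genes and for 9 of hepatocyte markers, over 121 shifts. Its median for the brain genes minus that for hepatocyte markers was 1.94 at a shift of 11, 0.11 at 0 and at most 1.08 at any other. For the brain genes alone the median was 0.37 at a shift of 11 and at most 0.21 at any other. Of the brain rows, 55.3% had the smaller SD in brain at a shift of 11, beside 49.4% at 0 and 57.1% at -57. The arrays held 19530 to 20584 values each of 20794 probes, and array medians ran from -0.125 to 0.24. Values over 10 in size, of which there were 1496, were set to missing. Only ratios were analysed, so the level of a gene, its signal over background and the presence of striatal tissue could not be checked. In these whole-tissue samples, fewer cells of a type and less RNA per cell cannot be told apart. In the same brain samples some pituitary hormone genes, though not all, were far lower than in the pool. Prl was at -4.28 ± 0.27 (SD, n = 3 mice) and Pomc at -2.75 ± 0.52 (n = 4). Over all brain probes limma gave them adjusted p values of 0.0506 and 0.155. The part of unequal tissue in the values of the striatal genes was not tested.

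None of the 10 genes passed the test in brain. Limma's test of the mean against 0, adjusted by Benjamini-Hochberg over 19118 probes, gave an adjusted p of 0.9998 for each of the 12 rows with values in at least 3 mice. Of all brain probes, 0 passed (0%), and 794 had an unadjusted p under 0.05 (4.15%, with 2.22% lower and 1.93% higher), none of them a row of these genes. With the ratios as deposited the means ran from -0.36 for Actn2 to 0.496 for Rasgrp2, with 7 rows below 0 and 5 above, against 44.9% and 55.1% of all brain probes. With the rows of a gene averaged, 5 genes lay below 0 and 5 above, with a median of -0.035 beside 0.023 over 8567 genes. The 10 genes were chosen with earlier results of these data known, so their counts are a description.

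Rows with a value in all 4 brain mice numbered 10. In 4 of them, Penk, both rows of Rgs9 and Actn2, all 4 mice lay below 0, and in 1, Itpka, all 4 lay above it. Among all brain probes with 4 values the shares were 4.71% below and 6.03% above. With each array centred on its median, Penk, Rgs9 b and Actn2 still had 4 mice below 0 and Itpka 4 above, while Rgs9 a had 3 below (5.85% of all probes below, 7.06% above). An exact sign-flip permutation test over 4 mice cannot give a two-sided p under 0.125, which is the value that these 5 rows had. RefSeq start sites (GRCm38.p6) were matched for 9 of the 10 genes, all but Penk. The windows of Rgs9, Actn2 and Itpka are shown because these genes, like Penk, lay on 1 side of 0 in every brain mouse. Each line gives the 250 bases before the start, read 5′ to 3′, on chr11:109298182-109298431 (minus strand) for Rgs9, chr13:12340733-12340982 (minus strand) for Actn2 and chr2:119742087-119742336 (plus strand) for Itpka. Capitals mark the TATA motif TATAAA and the GC box GGGCGG on either strand, none overlapping the other motif.
Rgs9: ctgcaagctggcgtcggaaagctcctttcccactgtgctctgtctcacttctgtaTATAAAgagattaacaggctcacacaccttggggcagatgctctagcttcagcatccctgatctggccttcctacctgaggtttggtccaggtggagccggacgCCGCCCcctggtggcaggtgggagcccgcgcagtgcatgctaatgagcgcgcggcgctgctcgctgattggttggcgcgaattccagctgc
Actn2: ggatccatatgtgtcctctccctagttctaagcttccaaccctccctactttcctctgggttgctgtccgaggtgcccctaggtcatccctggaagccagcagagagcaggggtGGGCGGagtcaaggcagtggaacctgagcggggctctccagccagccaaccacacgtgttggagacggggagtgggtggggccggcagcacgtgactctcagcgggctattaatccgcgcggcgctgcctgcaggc
Itpka: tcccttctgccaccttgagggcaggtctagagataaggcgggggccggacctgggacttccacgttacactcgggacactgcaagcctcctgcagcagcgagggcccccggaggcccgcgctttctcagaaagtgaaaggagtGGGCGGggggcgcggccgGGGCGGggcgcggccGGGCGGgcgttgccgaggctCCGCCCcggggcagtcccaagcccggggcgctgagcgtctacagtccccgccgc
GGGCGG stood in 32.7% and TATAAA in 12.4% of 32851 such windows, which have a median GC content of 52.4%. The Rgs9 window held 1 of each motif, Actn2 held 1 GC box, and Itpka held 4 GC boxes at a GC content of 72.8%. The CRE core TGACG, also searched on both strands, stood in none of these 3 and in 17.8% of all windows. Among the 9 matched genes, Tac1 and Rgs4 held it, and 8 of the 9 held a GC box in at least 1 of their windows. These are matches of letters, and binding was not measured.

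**Figure D1:**
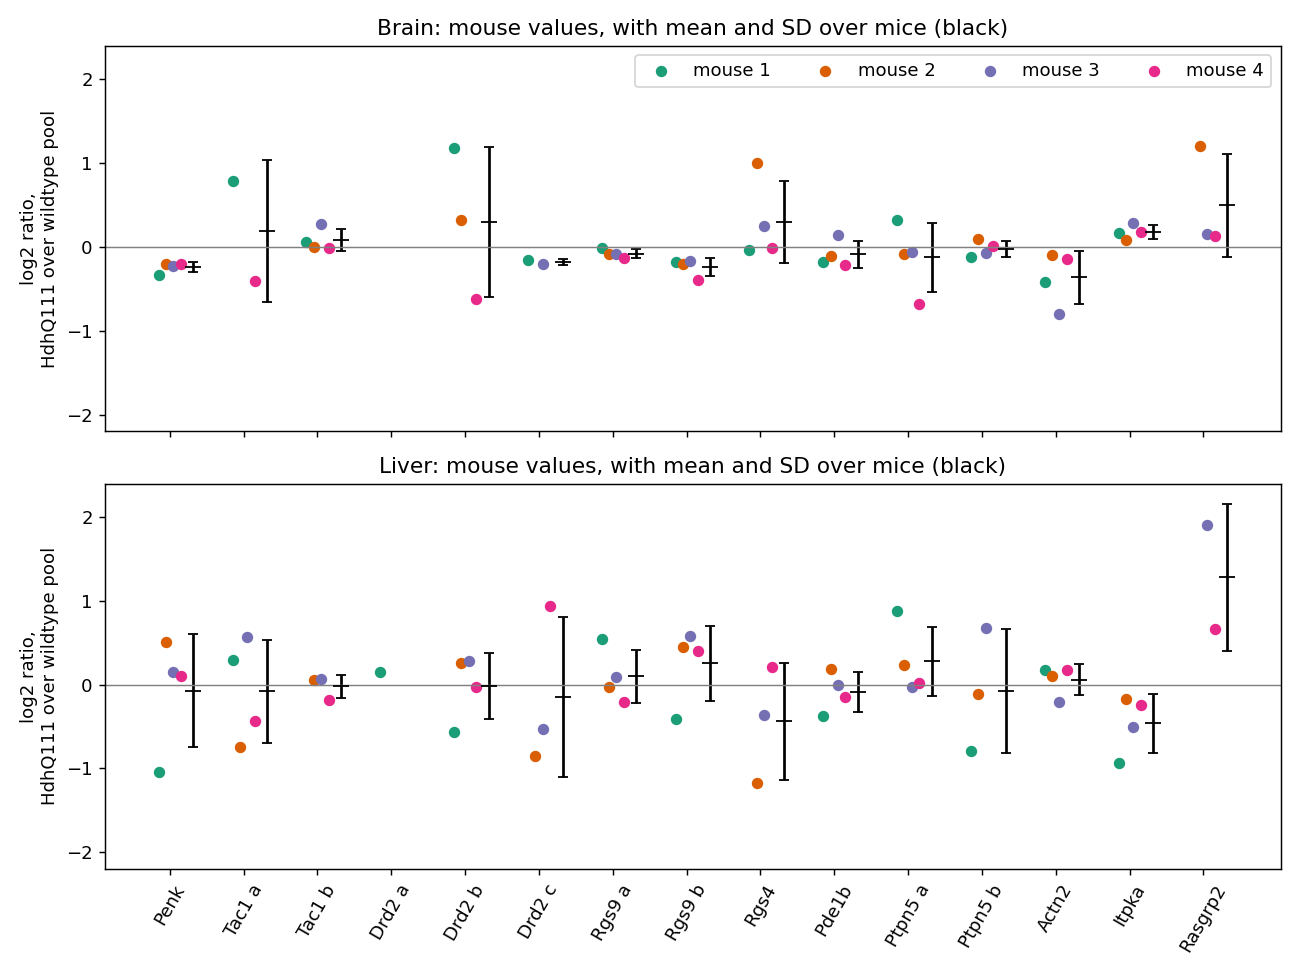
Log2 ratios (y axis, HdhQ111 over wildtype pool) of the 15 rows (x axis) in brain (top) and liver (bottom). Each coloured point is a mouse value, the mean of its dye-swapped arrays, and the black bar is the mean with the SD over mice where at least 2 had a value. In brain, Penk, Rgs9 and Actn2 lay below 0 in all mice and Itpka above 0. In liver, Penk ran from -1.04 to 0.51.

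Penk encodes proenkephalin, the precursor of the enkephalin opioid peptides of the indirect pathway. Its brain ratio was -0.33, -0.20, -0.23 and -0.20 in mice 1 to 4. All 4 mice were below 0 within a narrow range. The mean was -0.24 ± 0.06 (SD, n = 4), a ratio of 0.847, with a 95% interval from limma of -0.53 to 0.051, which holds 0. Centring each array gave -0.25 ± 0.07, with a limma p of 0.043 unadjusted and 0.968 adjusted. Quantile normalization gave -0.36 ± 0.08, with a limma p of 0.018 unadjusted and 0.961 adjusted. The share of all probes with an unadjusted p under 0.05 was not counted in these settings. The narrow spread of the mouse values came with opposite signs by dye. Arrays with the mutant RNA in Cy5 read 0.015, 0.45, 0.27 and 0.061, and those with it in Cy3 read -0.68, -0.85, -0.72 and -0.46. The Cy5 reading lay above the Cy3 reading in all 4 mice, beside 23% of all brain probes with 4 mice. The Cy3 readings lay farther from 0 on average, which gives the negative mean. In liver Penk was at -1.04, 0.51, 0.15 and 0.098, a mean of -0.07 ± 0.67 that lay on both sides of 0.

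Tac1 encodes protachykinin, the precursor of substance P in the direct pathway, and was measured by 2 rows. Row b read 0.064, -0.0020, 0.27 and -0.0070 in the 4 brain mice. It stayed close to 0 in 3 mice and was highest in mouse 3, with a mean of 0.08 ± 0.13 (n = 4, 95% interval -0.23 to 0.39). Row a had both arrays in 2 brain mice only, at 0.79 in mouse 1 and -0.41 in mouse 4, and was not tested. In liver row a averaged -0.08 ± 0.61 (n = 4) and row b -0.02 ± 0.14 (n = 3). Set beside Penk, the other peptide, Tac1 row b did not share the side of 0, but the difference between the genes was not tested. Tacr1, the substance P receptor, was at 0.14 ± 0.20 in brain. Of 4 opioid and tachykinin genes measured there, Penk and Tac1 among them, 3 lay above 0 and 1 below, beside 56.7% of all genes above 0.

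Drd2, the D2 dopamine receptor of indirect pathway neurons, was poorly measured. Row a had no mouse with both arrays in brain, where 4 of its 8 cells were empty and 2 held values over 10 in size. Row b read 1.18, 0.33 and -0.62 in mice 1, 2 and 4, a mean of 0.30 ± 0.90 (n = 3, 95% interval -0.64 to 1.23). Its single arrays ran from -0.99 to 2.87. Row c had 2 brain mice, at -0.15 in mouse 1 and -0.21 in mouse 3, each the mean of arrays with opposite signs. The Cy5 and Cy3 arrays read 3.04 and -3.34 in mouse 1 and 0.45 and -0.86 in mouse 3. The rows gave no common direction, and the interval of row b held a loss as well as a gain. In liver, row b was at -0.01 ± 0.40 (n = 4) and row c at -0.14 ± 0.95 (n = 3).

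Rgs9 encodes a regulator of G protein signalling whose long splice form is enriched in striatum, where it speeds the shut-off of receptor-coupled Gi and Go proteins. Row a read -0.01, -0.08, -0.09 and -0.13 in the brain mice, and row b -0.18, -0.20, -0.16 and -0.39. Both rows had all 4 mice below 0, with means of -0.08 ± 0.05 and -0.24 ± 0.11. The 95% intervals were -0.37 to 0.21 for row a and -0.54 to 0.065 for row b, and the unadjusted p of row b was 0.103. The rows differed in dye behaviour. Row a was higher on the Cy5 array than on the Cy3 array in all 4 mice, and row b in 1 of 4. In liver both means were above 0, at 0.10 ± 0.32 and 0.25 ± 0.45, with mice on both sides of 0 in each row. Row b was lowest in mouse 1, at -0.41, and between 0.40 and 0.58 in the other mice, and without mouse 1 its liver mean was 0.475.

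Rgs4, a regulator of Gi and Gq signalling expressed in striatum and cortex, read -0.03, 1.01, 0.25 and -0.02 in brain. Mouse 2 stood above the others, and without it the mean fell from 0.30 ± 0.49 to 0.067. In liver Rgs4 averaged -0.44 ± 0.70 over mice 2 to 4, and the value of mouse 1 was missing because its Cy3 array held a value over 10 in size. Of 13 genes of the RGS family and its partners measured in brain, 8 lay above 0 and 5 below, with a median of 0.0265, beside 56.7% of all genes above 0. None had an unadjusted p under 0.05, beside 3.92% of all genes. Gnb5, the beta subunit that holds Rgs9 stable, was at 0.19 ± 0.17, and Rgs7bp, the membrane anchor of that complex, at 0.10 ± 0.26. Other family members lay between Rgs6 at -0.11 ± 1.20 and Rgs19 at 0.32 ± 0.86. Rgs9 was at -0.16 ± 0.07 with its rows averaged, and at 0.017 with the sign changed on the Cy3 arrays.

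Pde1b encodes a calcium- and calmodulin-dependent phosphodiesterase that breaks down cAMP and cGMP. It read -0.17, -0.11, 0.14 and -0.22 in brain. Mice 1, 2 and 4 lay below 0 and mouse 3 above, with a mean of -0.09 ± 0.16 (95% interval -0.41 to 0.23). In liver it averaged -0.09 ± 0.24, again on both sides of 0. The paralogs Pde1a and Pde1c were at -0.22 ± 0.45 and 0.02 ± 0.48 in brain. Pde10a, the other striatum-enriched phosphodiesterase, was at -0.04 ± 0.92, with an SD larger than the mean of any of the 10 genes. Pde6d and Pde9a were at 0.28 ± 0.36 and 0.15 ± 0.22. Of 12 phosphodiesterases measured in brain, 4 lay above 0 and 8 below, with a median of -0.02 and 0 at an unadjusted p under 0.05 (56.7% and 3.92% of all genes were above 0 and under that p).

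Itpka encodes inositol-trisphosphate 3-kinase A, a neuronal enzyme that ends IP3 calcium signals and bundles actin in dendritic spines. Its brain ratio was 0.16, 0.08, 0.28 and 0.17 in mice 1 to 4. All lay above 0, with a mean of 0.18 ± 0.08 (95% interval -0.12 to 0.47) from limma. By dye, the Cy5 arrays read 0.75, 0.46, 0.68 and 0.94 and the Cy3 arrays -0.43, -0.29, -0.12 and -0.59. In liver the gene read -0.94, -0.17, -0.51 and -0.24, all below 0, with a mean of -0.46 ± 0.35. It was the 1 row of the 13 tested in liver with an unadjusted p under 0.05, beside 7.39% of all 20049 liver probes (4.2% lower, 3.18% higher), and its adjusted p from limma was 0.622. Without mouse 1 the liver mean was -0.31. The liver Cy5 arrays read -2.29, 0.077, -0.567 and -0.178, and the Cy3 arrays 0.414, -0.424, -0.445 and -0.300. In mouse 1 and in mouse 2 the 2 arrays thus had opposite signs. The paralog Itpkc was at 0.21 ± 0.20 in brain and -0.13 ± 0.23 in liver.

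Ptpn5 encodes STEP, a tyrosine phosphatase of striatal neurons that dephosphorylates ERK, Fyn and glutamate receptors. Row b read -0.12, 0.09, -0.08 and 0.0085 in brain, the most even row of the 15 across single arrays, whose values ran from -0.14 to 0.11. Its mean was -0.02 ± 0.10 (95% interval -0.32 to 0.27). Row a read 0.33, -0.09, -0.06 and -0.68, with mouse 1 high and mouse 4 low, a mean of -0.12 ± 0.41. Both rows lay on both sides of 0. Map2k1, the kinase that activates ERK, was at 0.15 ± 0.16 in brain, and Dusp1, another phosphatase of MAP kinases, at 0.30 ± 0.64. In liver the rows were at 0.28 ± 0.42 (a, n = 4) and -0.08 ± 0.74 (b, n = 3).

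Rasgrp2 encodes CalDAG-GEFI, which activates the small G protein Rap1 in response to calcium and diacylglycerol. It had 3 brain mice, at 1.20, 0.16 and 0.13 in mice 2 to 4. All 3 lay above 0, with mouse 2 the highest and a mean of 0.50 ± 0.61 (95% interval -0.20 to 1.19). The single array of mouse 1 read -0.68, and with 1 array of a mouse allowed the mean was 0.20 ± 0.77 (n = 4). In liver 2 mice had a value, at 1.90 and 0.66 in mice 3 and 4, and the row was not tested. The single liver arrays of mice 1 and 2, with the mutant RNA in Cy3, read -0.98 and -1.39. The relatives Rasgrp1, Rasgrp3 and Rasgrp4 were at 0.05 ± 0.28, -0.29 ± 0.85 (n = 3) and -0.20 ± 0.60 in brain. Rap1b, a substrate of Rasgrp2, was at -0.13 ± 0.16. Of 17 measured regulators of ERK, Rap and Ras in brain, Rasgrp2 and Ptpn5 included, 8 lay above 0 and 9 below, with 0 at an unadjusted p under 0.05, beside 56.7% of all genes above 0 and 3.92% under that p.

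Actn2 encodes alpha-actinin-2, an actin crosslinker of dendritic spines that binds NMDA receptor subunits and is also a protein of the muscle Z-disc. Its brain ratio was -0.42, -0.09, -0.80 and -0.15. All mice lay below 0, and mouse 3 was the lowest. The mean was -0.36 ± 0.32, a ratio of 0.777 (95% interval -0.76 to 0.036, by limma). Without mouse 3 it was -0.22. It was the lowest mean of the 12 tested rows with the ratios as deposited, but with the sign changed on the Cy3 arrays it was -0.08 and Drd2 b and Rgs9 b were lower, at -0.84 and -0.23. Both dyes gave a negative mean, -0.45 with the mutant RNA in Cy5 and -0.28 with it in Cy3, although 2 of the 4 Cy3 arrays lay above 0. In liver it was at 0.06 ± 0.18, with 3 mice above 0. The paralogs Actn3 and Actn4 were at 0.40 ± 0.50 (n = 3) and 0.01 ± 0.17 in brain, and drebrin, Dbn1, an actin-binding protein of spines, was at 0.19 ± 0.08. Of 13 genes of the actinin and spine actin list, 10 lay above 0 and 3 below in brain, beside 56.7% of all genes above 0.

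**Figure D2:**
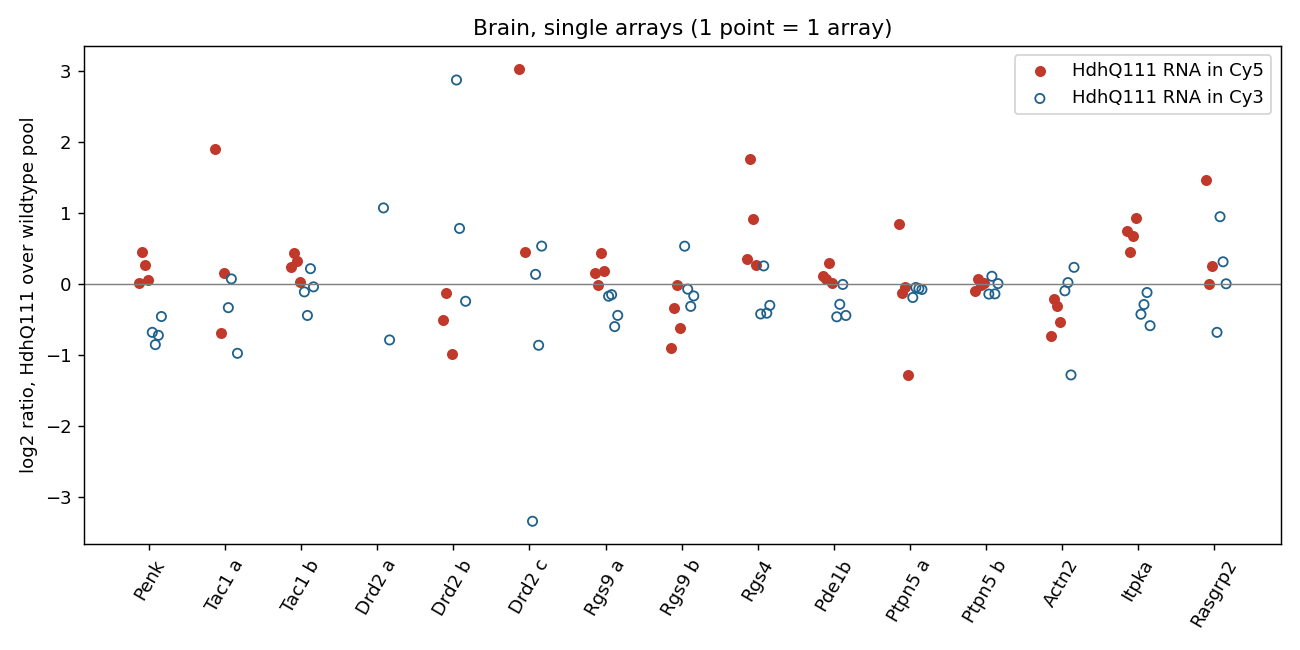
Log2 ratios of single brain arrays (y axis) for the 15 rows (x axis). Filled red points are arrays with HdhQ111 RNA in Cy5 and open blue points those with it in Cy3. For Penk, Rgs9 a, Rgs4, Pde1b and Itpka all Cy5 readings lie above all Cy3 readings, while those of Actn2 and Ptpn5 overlap. The share of all probes with such a full split was not counted.

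The dye split seen for Penk and Itpka was common among these genes. The dye offset of a row, its Cy5 reading minus its mouse value, averaged 0.44 ± 0.17 for Penk, 0.53 ± 0.18 for Itpka, 0.52 ± 0.22 for Rgs4 and 0.21 ± 0.06 for Pde1b (SD, n = 4). In brain 6 of the 10 rows with 4 mice (these 4, Rgs9 a and Tac1 b) had the Cy5 array above the Cy3 array in every mouse, and 0 had it below in every mouse. Over all brain probes with 4 mice, 23% had it above and 11.3% below in every mouse. In liver 0 of 9 such rows had it above in all 4 mice, beside 20.2% of all probes, and 1, Rgs9 b, had it below, beside 16%. Had the deposited ratios not been turned one way, this dye offset would be the genotype ratio, and 5 of 12 brain rows would change sign. Penk, Rgs9 a, Pde1b and Ptpn5 b (0.017) would lie above 0, and Drd2 b, at -0.84, below it. The brain dye offsets of Prl and Pomc were 0.17 and 0.045, beside mean ratios of -4.28 and -2.75. Of the 1496 values over 10 in size, 769 stood on arrays with the mutant RNA in Cy5, all above 0. The other 727 stood on arrays with it in Cy3, all below 0. The direction itself was not tested. Across 18855 probes the dye offsets in brain had a Spearman's rho of 0.41 with those in liver, and the mean ratios one of -0.012. Probes are not independent replicates, and those of a tissue share arrays and pool. The part of dye bias in the means of these genes was not tested.

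The rows also differed in how closely the mice resembled each other within a dye orientation. The SD between mice of 1 orientation, pooled over both, was 0.101 for Ptpn5 b, 0.172 for Pde1b, 0.183 for Penk, 0.199 for Itpka and 0.202 for Rgs9 a in brain. The median over all probes was 0.456. In liver the same rows had 0.817, 0.767, 0.762, 0.808 and 0.612, beside a median of 0.416. The liver SD was thus 8.10 times the brain SD for Ptpn5 b, 4.46 times for Pde1b, 4.15 times for Penk, 4.07 times for Itpka and 3.03 times for Rgs9 a. Of 12 rows with both values, 7 had the smaller SD in brain, beside 41.6% of all probes. Ptpn5 a, unlike row b of that gene, had the larger SD in brain, at 0.616 against 0.469 in liver. The same held for Actn2 (0.510 against 0.284), Drd2 b (1.16 against 0.593), Tac1 a (1.01 against 0.940) and Tac1 b (0.228 against 0.157). Of the other striatal projection neuron genes, 7 of 17 had the smaller SD in brain. The counts were 8 of 8 for oligodendrocyte markers, 5 of 6 for microglia, 7 of 9 for cortical neurons, 2 of 9 for astrocytes, 0 of 3 for cerebellar neurons and 0 of 8 for hepatocytes.

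**Figure D3:**
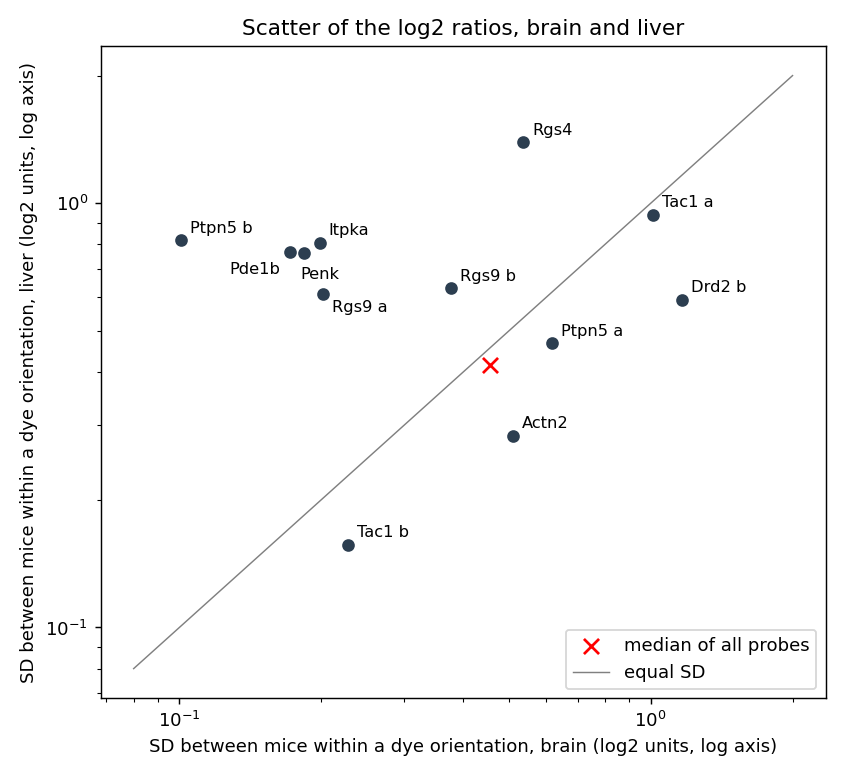
SD of the log2 ratios between mice within a dye orientation in brain (x axis) and liver (y axis), both on log axes, for the 12 rows with both values. The red cross is the median of all probes and the line marks equal SD. Ptpn5 b, Pde1b, Penk, Itpka and Rgs9 a form a group with a brain SD of 0.101 to 0.202.

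None of the 13 rows tested in liver passed, nor did any other liver probe (0 of 20049, 0%). By mean, 4 rows lay above 0 and 9 below, beside 46.5% and 53.5% of all liver probes. Of the 9 rows with 4 liver mice, 1 (Itpka) had all mice below 0 and 0 had all above, beside 13% and 7.56% of all probes, and centring each array gave the same counts beside 11.9% and 8.41%. With rows averaged, 3 of 9 genes lay above 0 (43.4% of 8803 genes), and 1 had an unadjusted p under 0.05 (8.24% of them). Each gene's liver ratio was then set against its brain ratio, with limma over 18855 probes, of which 2 passed (0.0106%) and neither was a row of these genes. The difference was -0.64 ± 0.19 (SE) for Itpka, with brain at 0.18 and liver at -0.46 (adjusted p = 0.721 from limma). It was the 1 row of 11 with an unadjusted p under 0.05, beside 6.7% of all probes. All 4 mice were lower in liver than in brain, since the brain values were all above 0 and the liver values all below it. Rgs9 b lay at 0.49 ± 0.23 (adjusted p = 0.721), Actn2 at 0.42 ± 0.20 (0.721) and Rgs4 at -0.74 ± 0.37 (0.721). Penk, at 0.17 ± 0.30, and Pde1b, at 0.0023 ± 0.17, had differences smaller than their SE. The Penk difference was 0.46 without mouse 1, where its adjusted p from limma was 0.629, and -0.013 without mouse 2. With the mouse as a replicate block, the values for Itpka were -0.64 ± 0.20 and an adjusted p of 0.744, so the call was the same. In that fit Itpka and Actn2 had an unadjusted p under 0.05, beside 6.09% of all probes.

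By mouse, the 10 genes lay on both sides of 0 in every brain. Mouse 1 had 4 of 9 measured genes above 0, with a median of -0.0335 beside -0.0905 over all probes of that mouse. Mice 2 and 3 each had 5 of 10, with medians of 0.00075 and 0.038 beside 0.0075 and 0.134. In mouse 4, 8 of 10 genes lay below 0, with a median of -0.20 beside 0.029 over all probes of that mouse. The share of all probes on each side of 0 was not counted by mouse. The 2 genes above 0 in mouse 4 were Itpka and Rasgrp2. Its liver had 7 of 10 genes above 0, with a median of 0.098 beside -0.0035 over all probes.

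The array also named other genes of striatal projection neurons. Of 18 measured in brain, 8 lay above 0 and 10 below, from -0.31 to 0.12 with a median of -0.03 (56.7% of all genes lay above 0). None passed (3 of 8567 genes did, 0.035%), and 0 had an unadjusted p under 0.05 (3.92% of all genes), by limma with the rows of a gene averaged. Ppp1r1b, which encodes the dopamine-regulated phosphatase inhibitor DARPP-32, was at -0.07 ± 0.27, and Bcl11b, a transcription factor of projection neuron development, at 0.0039 ± 0.16. The lowest means were those of Foxp1, a transcription factor, at -0.31 ± 0.74 (n = 3), Rxrg, a retinoid receptor, at -0.27 ± 0.64 (n = 3) and Strn at -0.22 ± 1.25, all with an SD above the size of the mean. Gad1 and Gad2, the enzymes that make GABA, were at -0.04 ± 0.11 and -0.06 ± 0.21, and Slc32a1, the vesicular GABA transporter, at 0.05 ± 0.11. Arpp21, a striatum-enriched phosphoprotein, was at 0.12 ± 0.49 and Arpp19 at 0.01 ± 0.23. Homer1, a postsynaptic scaffold, was at -0.11 ± 0.08, Ebf1, a transcription factor of direct pathway neurons, at -0.18 ± 0.22 and Meis2 at 0.06 ± 0.22. Ppp1r9b, which encodes the spine protein spinophilin, was at 0.03 ± 0.23, Kcnab1 at -0.02 ± 0.39 and the retinoic acid receptor Rarb at 0.00025 ± 0.22.

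Of 20 dopamine and cAMP signalling genes, receptors included, 13 lay above 0 and 7 below in brain, with a median of 0.02 (56.7% of all genes lay above 0). None had an unadjusted p under 0.05, beside 3.92% of all genes. The highest was Drd4, a dopamine receptor paralog of Drd2, at 0.42 ± 0.59 (n = 3), named here after its value was seen. Prkacb, a catalytic subunit of protein kinase A, was at 0.23 ± 0.32 and Ppp2ca, a catalytic subunit of protein phosphatase 2A, at 0.15 ± 0.14.

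**Figure D4:**
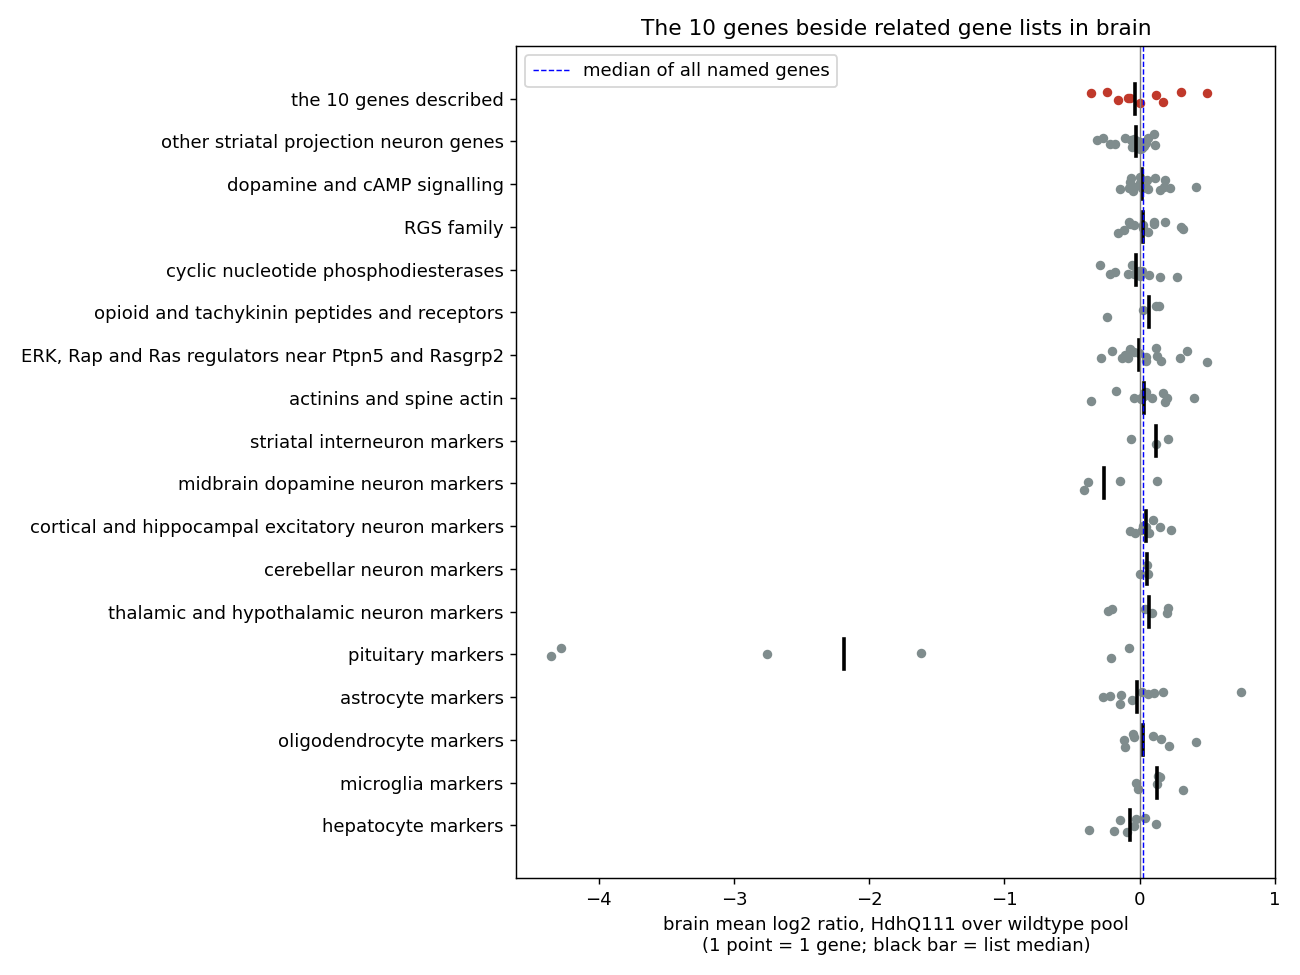
Brain mean log2 ratios (x axis, HdhQ111 over wildtype pool) of single genes by list (y axis). Red points are the 10 striatal projection neuron genes, grey points genes of the other lists, and black bars list medians. The medians of the striatal lists lie at -0.035 and -0.03, while the pituitary list has a median of -2.18.

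Markers of other cells in the brain samples were set beside these values. Of all genes, 56.7% lay above 0 in brain. Cortical and hippocampal excitatory neuron markers had a median of 0.047 over 9 genes, from -0.07 to 0.23, with 7 above 0. Markers of midbrain dopamine neurons, which innervate the striatum, had 1 of 4 genes above 0 and a median of -0.26, with Slc18a2, the vesicular monoamine transporter, at -0.41 ± 0.70. Striatal interneuron markers had a median of 0.12 over 3 genes (Pvalb 0.12 ± 0.28, Calb2 0.21 ± 0.27, Sst -0.07 ± 0.19), cerebellar markers 0.052 over 3 and thalamic and hypothalamic markers 0.065 over 6. Astrocyte markers had a median of -0.02 over 10 genes, oligodendrocyte markers 0.0275 over 8 and microglia markers 0.13 over 6. Each of these glial lists held 1 gene above 0 with an unadjusted p under 0.05, which were S100b at 0.75 ± 0.43, Olig2 at 0.41 ± 0.23 and C1qa at 0.32 ± 0.16, beside 3.92% of all genes with such a p in either direction, and none passed over all genes. Hepatocyte markers had a median of -0.07 over 8 genes in brain. The pituitary list had 6 of 6 genes below 0, from -4.35 to -0.08 with a median of -2.18. With rows averaged, 4 of the 6 had an unadjusted p under 0.05 by limma, beside 3.92% of all genes. Prl and Pomc passed (limma adjusted p 0.00547 and 0.026).

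Genes with the most similar pattern over the 8 mouse values (4 brain, 4 liver) were sought among 7427 genes with all 8. For Penk they were Arl14ep (Pearson's r 0.95), Fbxw4 (0.95) and Abca2 (0.95). For the mean profile of the 8 of the 10 genes with all values they were Acan (0.96), Gria2 (0.95) and 2810408A11Rik (0.92). These are the highest of many correlations over few points that share mice and pools, and Fbxw4 and Abca2 had brain means of -0.05 and 0.02.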

How the data were processed

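The authors deposited 1 table of normalized log2 ratios (base 2 assumed) for 20794 probes on 16 two-colour arrays. Per the labels, each array paired cDNA of 1 mouse with cDNA of a pool of 4 wildtype mice, labelled indirectly with Cy3 and Cy5. How the arrays were scanned, corrected for background, normalized and filtered is not given in the sources used here. Scale and centring stay unknown, and the sign was inferred.

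Values over 10 in size were set to missing. A mouse value was the mean of both dye-swapped arrays and needed both. Probes with at least 3 mice were tested with limma 3.58.1 in R 4.3.3 (lmFit, eBayes), mean against 0, with Benjamini-Hochberg adjustment over all probes at 0.05. Tissues were fitted apart, then together for liver minus brain. The code was tested on simulated data. Symbols were updated through Entrez numbers, and 12760 rows had a name. The genes, lists and tests were chosen with earlier results of these data known. Named genes were all rows of the 10 genes, all other measured striatal genes, family paralogs and up to 3 genes of each other list by brain p among genes with all 4 brain mice, besides those that passed.

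The same mice gave both tissues, per the labels. Deviations of brain and liver from their tissue means correlated within a mouse by Spearman's rho of 0.053, -0.013, 0.084 and 0.020, and with the livers of other mice by -0.021, 0.0094, -0.023 and -0.0099 on average. The number of mice and the single pool per tissue limit the precision. Alternatives were another centring and scaling, single dyes, other filters, averaged probes, other names and leaving out each mouse.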

Additional observations from a re-analysis of the deposited data

Results flagged for a closer look

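Itpka was the 1 gene of the 10 whose 4 brain mice all lay above 0 while its 4 liver mice all lay below 0. Of all probes with 4 values, 6.03% had all mice above 0 in brain and 13% all below in liver. The share with both was not counted. The liver-minus-brain difference was -0.6395 on the log2 scale, with a brain mean of 0.18 and a liver mean of -0.46. The difference itself was tested with limma and did not pass (adjusted p = 0.721). No mouse of any row stood apart from the other 3 by Dixon's test at the 95% level (19 row and tissue groups with 4 mice).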

How the results depend on the processing

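No row of the 10 genes passed under any alternative: the lowest adjusted p from limma was 0.273 in brain and 0.0996 in liver over 14 planned settings. The sign of the brain mean depended on the dye: with Cy5 arrays alone 4 of 12 rows changed sign, and with Cy3 arrays alone 3 did, while centring and quantile normalization changed 0. The median of the 10 genes in brain was 0.17 on Cy5 arrays and -0.20 on Cy3 arrays, and in liver -0.25 and 0.078. With the sign changed on the Cy3 arrays, an alternative chosen after seeing the data, the medians were 0.18 in brain and -0.17 in liver, and 225 liver probes passed but 0 in brain. With the names as the platform table gives them, 4 of 11 brain rows had another sign. Brain probes passing numbered 1 when 1 array of a mouse sufficed and 3 with the probes of a gene averaged. Leaving out 1 mouse at a time gave 0 to 2 brain probes (1 without mouse 1, 2 without mouse 2), 0 to 1 liver-minus-brain probes (1 without mouse 1 or mouse 2, 0 without mouse 3 or mouse 4), a brain median from -0.0998 to 0.013 and a liver median from -0.064 to 0.044. With mouse as a replicate block, 2 liver-minus-brain probes passed, as without it, and no call of the 10 genes changed. Where an alternative moved a value, the cause was not tested.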
